A study of Homo sapiens with 12 samples.

Results

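The genes described here are those whose transcript level was lower after TNFα in both wild-type (WT) and NFKB1 S80A HEK293T cells. They were chosen by the measured values themselves. Counts were converted to CPM, a gene's count divided by the sum of its column and scaled to a sum of 1000000, and a gene was taken if its mean was at least 5 CPM over the 12 samples and if its highest treated sample lay below its lowest untreated sample in WT cells and again in S80A cells. Of 33093 genes with readable counts 10763 reached 5 CPM, and 161 of these met the rule. The rule leaves out BMF, PPARGC1A and SMAD6, of which only SMAD6 met it, so that 160 genes remain. Because the fall with TNFα chose these genes, its size and the calls made for it are given as a description, and nothing is read from them. Tests are given for the differences between genotypes in each state, which the rule did not use. The difference between genotypes in the fall itself, the interaction, is also given. The rule used both falls and limits how far they can differ, so its p-values do not come from an unselected contrast.

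The 12 samples comprised 4 groups of 3: WT cells without treatment, WT cells after 3 h of TNFα at 10 ng/ml, S80A cells without treatment and S80A cells after the same exposure. HEK293T is a human embryonic kidney line. In the S80A cells the codon for serine 80 of NFKB1, the gene for the NF-κB subunit p50 and its precursor p105, had been changed to alanine in the genome by CRISPR/Cas9. Edited cells were isolated as single-cell clones by serial dilution, and the number of clones that were sequenced is not given in the sources used here, so the effect of the edit and a difference between clones cannot be told apart. The paper calls the triplicates independently generated. Column totals ran from 15624878 to 20889577 counts. The HEK293T markers LIN28B, NEFL and HOXA9 were detected in all 12 samples, PAX2 did not exceed 2.58 CPM, and the blood cell genes PTPRC, CD3E and HBB had 0 counts.

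TNFα binds its receptor and activates IKK, which releases NF-κB dimers to enter the nucleus and switch on inflammatory and feedback genes. Among the genes that are lower after TNFα here are regulators of development and of BMP, Wnt and receptor kinase signals. A transcript can fall within hours through less transcription, faster decay or both, and short-lived transcripts such as those of the ID family, which encode helix-loop-helix proteins without a DNA-binding region, follow such changes quickly. In bulk RNA, fewer expressing cells and less RNA per cell cannot be told apart.

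Of the 10763 genes past the CPM floor, 863 (8.02%) were lower without overlap in WT cells and 1014 (9.42%) in S80A cells, against 5% if all 20 orders of 3 treated and 3 untreated samples were equally likely. In both genotypes together, 161 (1.5%) were lower. With equally likely orders and independent genotypes, 1 gene in 400, or 26.9 genes, would meet the rule by order alone. The 2 observed shares, if independent, would give 81.3 genes. These figures assume that samples vary independently, and genes that share a scaling factor or a replicate deviation do not meet that assumption. In the opposite direction, 194 genes were higher without overlap in both genotypes.

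The rule depended on the scaling of the libraries. With TMM-scaled library sizes 140 genes met it, 122 of them among the 160, and with DESeq2 size factors 142 met it, 126 of them among the 160. A rule with fewer samples is easier to meet, and with a sample left out the count was 179 to 280. The highest of these counts came without the second untreated S80A sample, where 280 genes met the rule.

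The 160 genes had mean levels of 5.17 to 482.0 CPM, with a median of 27.2 CPM against 44.8 CPM over the genes past the floor. Their lowest count in any sample was 51. The falls were moderate. In WT cells the log2 fold change of TNFα against untreated cells, from the edgeR fit, ran from -0.98 to -0.03 with a median of -0.26. In S80A cells it ran from -0.80 to -0.08 with a median of -0.29. The medians over all genes past the floor were 0.01 and 0.00. Of the 160 genes, 9 were lower by at least 0.5 log2 units in both genotypes, 0 by 1 log2 unit in either, and 29 by less than 0.2 in both. The gap between treated and untreated samples was at least 1.1-fold in both genotypes for 37 genes and at least 1.2-fold for 10, namely ISL1, DACT1, MAP2K6, KIT, DBP, TOB1, FRAT1, IDH1, KAZALD1 and EPHA7. For 44 genes it was under 2% in at least 1 genotype.

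**Figure D1:**
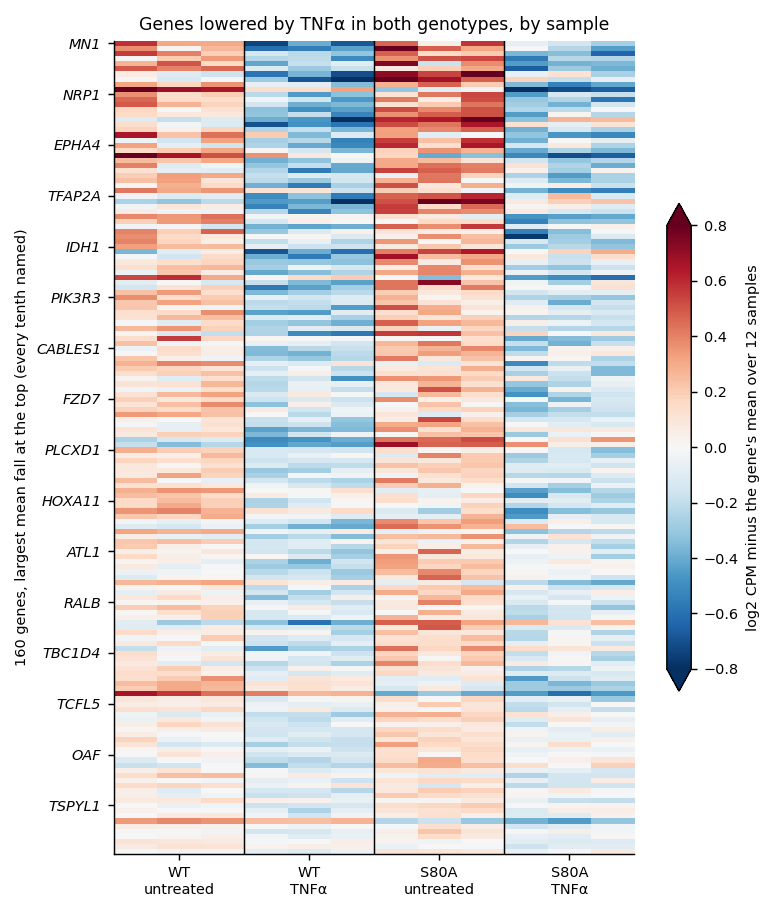
Each row is 1 of the 160 genes, with the largest mean fall at the top and some genes named, and each column is 1 of the 12 samples in 4 groups of 3. Colour gives log2 CPM minus the gene's mean over the 12 samples, so that both untreated groups are red beside their TNFα groups in blue, except for rows in which the genotypes differ by more than TNFα moved the gene.

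By the edgeR quasi-likelihood test with Benjamini-Hochberg adjustment over 14383 genes, 10 of the 160 passed the threshold of 0.05 for TNFα in WT cells, where 0.111% of all genes tested were called lower. In S80A cells 26 passed, where 0.292% were called lower. The rule used these contrasts, so nothing is read from the counts. DBP, KIT, ISL1, ID3 and IDH1 passed in both genotypes, and 31 genes passed in at least 1. Both counts fell when any sample of the same genotype was left out. Without 1 of 5 of the 6 WT samples 1 to 3 genes passed in WT cells. Without the third untreated or any treated S80A sample 8 to 13 passed in S80A cells.

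Edges of the rule were as follows. FRAT1, NUDT7 and JAK2 lay just above the CPM floor with means of 5.17, 5.39 and 5.47 CPM. PRKAG2-AS1, EIF3J-AS1 and ASXL3 met the order in both genotypes but lay just below the floor, with means of 4.89, 4.85 and 4.83 CPM. The narrowest gaps inside the rule were those of BCDIN3D, DLX1 and FRMD6, whose lowest untreated sample was 1.0004, 1.0009 and 1.0011 times the highest treated one in the closer genotype. UAP1L1, PCDH9 and NSF missed by as little, with ratios of 0.9999, 0.9995 and 0.9990.

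MN1, which encodes a transcriptional co-regulator rearranged in some meningiomas and leukaemias, had the largest mean fall. Its levels were 8.07, 6.68 and 6.65 CPM in untreated and 3.24, 4.08 and 3.37 CPM in treated WT cells. In S80A cells they were 7.44, 5.55 and 7.99 CPM untreated and 5.15, 4.86 and 4.47 CPM after TNFα. The group means were therefore 50.1% lower in WT and 30.9% lower in S80A cells, and the untreated and treated samples lay further apart in WT than in S80A cells. The difference between these falls was 0.45 log2 units (SE 0.22), with an adjusted p of 0.911 for the interaction in edgeR.

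DBP encodes a PAR bZIP transcription factor driven by the circadian clock. It measured 13.1, 10.3 and 12.1 CPM in untreated WT samples and 6.64, 6.90 and 7.51 CPM after TNFα. In S80A samples it went from 17.7, 14.1 and 12.5 CPM to 10.1, 8.64 and 7.46 CPM. The fall was 40.7% in WT and 41.0% in S80A cells, and the interaction was -0.02 log2 units (SE 0.21). DBP was the only one of 14 measured clock and PAR bZIP genes that met the rule (7.14%, against 1.49% of all genes past the floor). The medians of that list were 0.02 in WT and -0.02 log2 units in S80A cells.

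KIT, the receptor tyrosine kinase for stem cell factor, measured 21.8, 19.6 and 16.9 CPM in untreated and 13.5, 12.8 and 11.9 CPM in treated WT samples. The S80A samples had 20.6, 16.5 and 17.1 CPM, and 11.5, 11.7 and 9.52 CPM after TNFα. All 6 treated samples lay below all 6 untreated ones. ISL1, a LIM-homeodomain factor of motor neuron, heart and pancreas development, was likewise lower in every treated sample than in any untreated one. Its WT levels were 17.4, 16.2 and 16.98 CPM, then 11.4, 10.0 and 10.9 CPM, and its S80A levels were 13.0, 14.1 and 15.3 CPM, then 7.83, 10.1 and 9.41 CPM. The falls of ISL1 were 35.9% and 35.4%.

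CITED2, a CBP/p300-binding co-regulator that competes with HIF-1α, had log2 fold changes of -0.49 in WT cells and -0.80 in S80A cells, the lowest value in S80A cells among the 160. Its levels were 27.1, 31.2 and 34.1 CPM against 23.0, 23.4 and 18.9 CPM in WT cells. In S80A cells they were 34.6, 38.4 and 39.0 CPM against 18.2, 23.1 and 22.9 CPM. The interaction was -0.31 log2 units (SE 0.18, adjusted p = 0.911 in edgeR), so the larger fall in S80A cells was not called. TOB1, an anti-proliferative co-regulator of the BTG/TOB family that recruits the CCR4-NOT deadenylase, was 23.4% lower in WT and 28.2% lower in S80A cells. CITED2 and TOB1 were 2 of the 7 measured genes (28.6%) of the BTG/TOB and CITED list, whose median log2 fold changes were 0.04 and 0.08. Of all genes past the floor 1.49% met the rule.

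**Figure D2:**
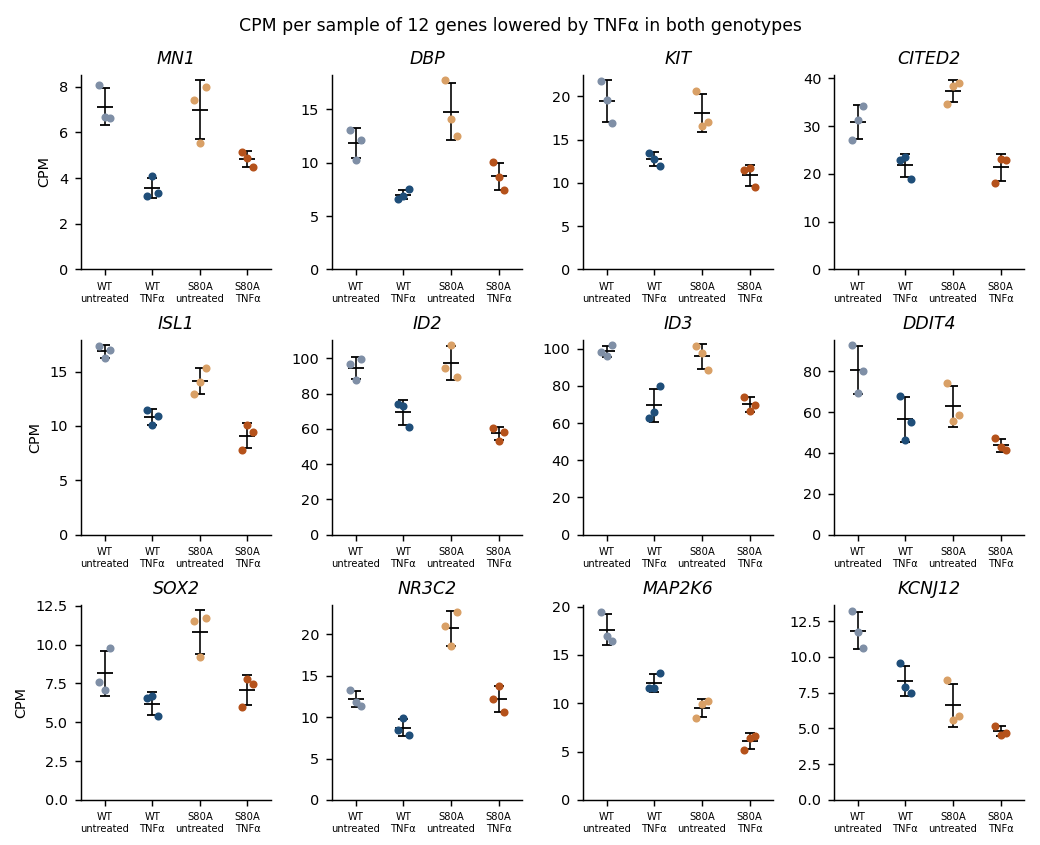
CPM of 12 genes in each sample (points), with the mean and SD of each group of 3 (bars), for WT and S80A cells without treatment or after 3 h of TNFα. In every panel the treated points lie below the untreated points of the same genotype, and MAP2K6, KCNJ12 and NR3C2 also differ between genotypes.

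Of the 4 ID genes 3 met the rule. ID2 measured 96.6, 87.5 and 99.4 CPM in untreated and 74.2, 72.9 and 61.0 CPM in treated WT samples. It measured 94.6, 108 and 89.5 CPM in untreated and 60.7, 53.4 and 58.2 CPM in treated S80A samples, a fall of 41.0% against 26.6% in WT. ID2 and RXRA were the 2 genes of the 160 with an unadjusted interaction p under 0.05, and neither passed after adjustment (adjusted p = 0.911 for each in edgeR). ID3 was 29.4% lower in WT and 26.9% lower in S80A cells, going from 98.1, 95.9 and 102 CPM to 62.9, 65.9 and 79.9 CPM in WT and from 102, 98.0 and 88.4 CPM to 74.2, 66.4 and 69.9 CPM in S80A cells. Its interaction was 0.04 log2 units (SE 0.14). ID1 was 25.1% lower in WT and 24.2% lower in S80A cells. ID4 did not meet the rule, with log2 fold changes of -0.01 in WT and -0.39 in S80A cells (SE 0.13 for both).

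ID genes are transcribed in response to BMP signals through SMAD proteins. In a list of 28 measured genes of the ID, BMP and TGFβ pathways 5 (17.9%, against 1.49% of all genes past the floor) met the rule: ID2, ID3, ID1, the decoy receptor BAMBI and the inhibitory SMAD7. BAMBI was 22.1% lower in WT and 26.9% lower in S80A cells, and SMAD7 17.1% and 18.3%. The list as a whole was near the background in WT cells, with medians of -0.03 in WT and -0.15 log2 units in S80A cells, and 14 of its 28 genes were negative in both genotypes, against 23.3% of all genes past the floor.

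The 250 bases before the RefSeq start sites (GRCh38.p14) are printed for the 3 ID genes, which belong to one family and were all lower in both genotypes, and for DBP, ISL1 and CITED2, which had some of the largest falls, so that their motifs can be compared. They are chr20:31605039-31605288 (plus strand), chr2:8681806-8682055 (plus), chr1:23559502-23559751 (minus), chr19:48637380-48637629 (minus), chr5:51383198-51383447 (plus) and chr6:139374649-139374898 (minus). Capitals mark matches, on either strand, to 9 motifs, and matches that overlap run together. The motifs were the κB consensus, the TATA box with the letters TATAAA, the CRE core with TGACGT, the AP-1 site with TGANTCA, the E-box with CACGTG, the forkhead site with TGTTTAC, the ETS site with CCGGAAG, the GC box with GGGCGG and the CCAAT box, whose name spells its letters.
ID1: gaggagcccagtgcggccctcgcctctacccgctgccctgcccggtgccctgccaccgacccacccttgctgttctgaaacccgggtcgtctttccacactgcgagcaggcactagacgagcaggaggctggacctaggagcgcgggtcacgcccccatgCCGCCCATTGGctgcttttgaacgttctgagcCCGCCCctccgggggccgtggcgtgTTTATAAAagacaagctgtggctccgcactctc
ID2: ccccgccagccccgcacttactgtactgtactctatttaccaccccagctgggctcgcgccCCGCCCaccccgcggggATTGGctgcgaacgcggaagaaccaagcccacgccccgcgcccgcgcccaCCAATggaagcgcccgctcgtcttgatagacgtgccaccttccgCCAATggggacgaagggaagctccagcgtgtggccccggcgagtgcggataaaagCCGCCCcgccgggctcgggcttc
ID3: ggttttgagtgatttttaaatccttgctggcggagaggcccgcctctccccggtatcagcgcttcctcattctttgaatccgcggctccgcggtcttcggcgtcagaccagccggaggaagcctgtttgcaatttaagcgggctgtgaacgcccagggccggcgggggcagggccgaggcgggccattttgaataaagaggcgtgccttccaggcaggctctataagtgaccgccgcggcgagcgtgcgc
DBP: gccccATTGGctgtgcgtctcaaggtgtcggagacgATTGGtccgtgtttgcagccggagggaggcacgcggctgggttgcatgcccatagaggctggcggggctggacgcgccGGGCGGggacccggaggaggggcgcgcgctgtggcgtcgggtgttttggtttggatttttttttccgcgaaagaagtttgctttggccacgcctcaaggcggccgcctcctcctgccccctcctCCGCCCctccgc
ISL1: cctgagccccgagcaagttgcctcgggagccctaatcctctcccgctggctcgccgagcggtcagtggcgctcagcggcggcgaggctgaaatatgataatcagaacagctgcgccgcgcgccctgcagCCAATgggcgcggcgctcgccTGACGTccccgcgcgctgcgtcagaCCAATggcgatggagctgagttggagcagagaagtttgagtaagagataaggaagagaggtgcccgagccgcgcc
CITED2: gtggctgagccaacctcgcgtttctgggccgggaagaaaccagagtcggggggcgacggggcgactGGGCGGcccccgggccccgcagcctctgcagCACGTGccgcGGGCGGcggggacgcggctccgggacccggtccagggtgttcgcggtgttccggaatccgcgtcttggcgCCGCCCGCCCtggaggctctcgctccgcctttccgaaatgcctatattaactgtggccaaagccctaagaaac

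ID1 held 1 CCAAT box, 2 GC boxes and a TATA box that reads on both strands. ID2 held 3 CCAAT boxes and 2 GC boxes, and ID3 none of the 9 motifs in these letters. DBP held 2 CCAAT boxes and 2 GC boxes, ISL1 2 CCAAT boxes and 1 CRE core, and CITED2 4 GC boxes and 1 E-box. No motif was common to the 6 windows. Over all 27305 RefSeq promoters of 300 bases (250 before to 50 after the start), 35.7% hold a CCAAT box, 44.6% a GC box, 12.0% a TATA box, 8.32% a CRE core, 7.43% an E-box, 7.76% an AP-1 site, 3.41% a forkhead site, 10.7% an ETS site and 5.72% the κB consensus. Promoters were matched for 126 of the 160 genes (78.8%), under the 80% needed, so a comparison of motif shares over the whole set is void. The κB consensus was in the promoters of 5 of the 126 matched genes.

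Of 43 measured genes in the list of developmental transcription factors, 10 (23.3%, against 1.49% of all genes past the floor) met the rule (MN1, ISL1, POU3F2, SOX2, TFAP2A, ZIC2, SOX12, NR2F2, HEY1 and MEIS1), and 31 of the 43 (72.1%) were negative in both genotypes, against 23.3% of all genes past the floor. The list had medians of -0.12 in WT and -0.13 log2 units in S80A cells. It was chosen with the responses of these samples known, so its direction is not independent evidence. POU3F2, a POU factor of neural progenitors, was 24.0% lower in WT and 36.2% lower in S80A cells. SOX2, a factor of stem and neural progenitor cells, measured 7.62, 7.06 and 9.78 CPM against 6.53, 6.69 and 5.38 CPM in WT and 11.5, 9.21 and 11.7 CPM against 5.99, 7.81 and 7.46 CPM in S80A cells. The treated and untreated samples of SOX2 lay closer together in WT than in S80A cells.

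Families were then counted in full, and these were picked after the values were seen, so their shares are descriptions beside the 1.49% of all genes past the floor that met the rule and the 23.3% that were negative in both genotypes. Of 32 HOX genes past the floor, 7 (21.9%) met the rule (HOXD8, HOXA5, HOXD13, HOXC13, HOXB7, HOXA11 and HOXB13), and 29 of the 32 (90.6%) were negative in both genotypes, with medians of -0.17 and -0.17 log2 units. None of the HOX genes passed the threshold for TNFα in edgeR in either genotype. HOXD8 had the largest mean fall of these 7, with log2 fold changes of -0.41 (SE 0.14) in WT and -0.49 (SE 0.14) in S80A cells. Of 22 homeobox genes of the ALX, CDX, DLX, ISL, LHX, MEIS, MSX, NKX, PBX and PITX families, 8 (36.4%) met the rule, and of 6 HES and HEY genes, which encode Notch effectors, HEY1 and HEY2 did. The rule was also met by 2 of 7 SOX genes, 3 of 9 frizzled receptors and 2 of 3 inward rectifier potassium channels (KCNJ12 and KCNJ8). Other members of these families went the other way, among them SOX9, with log2 fold changes of 0.33 in WT and 0.66 in S80A cells, and FZD9, with 0.20 and 0.58. The homeobox gene MSX1 did so too, with 1.13 and 1.18.

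Signalling genes of the Wnt, ephrin and semaphorin pathways were represented by receptors, ligands and inhibitors. Of 32 measured Wnt pathway genes 5 (15.6%, against 1.49% of all genes past the floor) met the rule: DACT1, which binds Dishevelled, the receptors FZD4, FZD7 and FZD2, and the nuclear effector LEF1. DACT1 went from 11.7, 10.5 and 11.3 CPM to 8.32, 7.43 and 7.71 CPM in WT and from 15.0, 13.6 and 14.8 CPM to 8.87, 9.02 and 10.4 CPM in S80A cells, a wide gap in both. LEF1 was among the smallest, 9.9% lower in WT and 8.87% lower in S80A cells. FRAT1, which binds GSK3 and was not in the list, was 33.7% and 28.4% lower. The Wnt list had medians of -0.04 and -0.06 log2 units, and 16 of its 32 genes were negative in both genotypes.

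Of 28 axon guidance genes, NRP1, SEMA3D and RGMA met the rule (10.7%, against 1.49% of all genes past the floor). NRP1, a co-receptor for class 3 semaphorins and VEGF, went from 33.8, 29.1 and 30.1 CPM to 22.5, 19.1 and 20.9 CPM in WT cells and from 28.4, 35.1 and 37.9 CPM to 19.2, 23.9 and 23.1 CPM in S80A cells. The secreted ligand SEMA3D was 27.6% lower in WT and 34.1% lower in S80A cells. EPHA7, an ephrin receptor, was 26.6% and 36.8% lower, and EPHA4, EFNA5 and EFNB2 also met the rule among 16 Eph receptors and ephrins. Of these 16 genes 5 (31.2%) were negative in both genotypes, against 23.3% of all genes past the floor. Their medians were -0.10 in WT and 0.05 log2 units in S80A cells. EFNA1 went the other way, with log2 fold changes of 1.51 in WT and 2.31 in S80A cells, as did EPHA2, with 0.50 and 0.46. The axon guidance list as a whole had medians of -0.09 and 0.03 log2 units.

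Kinase pathway members had different roles. MAP2K6, which phosphorylates p38, and SPRY2, an inhibitor of receptor tyrosine kinase signals to ERK, met the rule, among 20 measured MAPK genes (10.0%). KIT and PIK3R3, a regulatory subunit of PI3K, met it among 27 genes of the insulin, PI3K and FOXO list (7.41%). Of all genes past the floor 1.49% met it. DDIT4, also known as REDD1, an inhibitor of mTORC1, went from 92.8, 69.1 and 80.2 CPM to 68.1, 46.2 and 55.03 CPM in WT and from 74.2, 55.4 and 58.7 CPM to 47.4, 42.8 and 41.3 CPM in S80A cells. The highest treated and lowest untreated WT samples of DDIT4 were nearly level. PAG1, a membrane adaptor that recruits the kinase CSK, was 27.2% lower in WT and 38.8% lower in S80A cells.

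Among 20 measured nuclear receptors, those that met the rule were NR3C2, RXRA and RARG (15.0%, against 1.49% of all genes past the floor). NR3C2, the mineralocorticoid receptor, measured 13.3, 11.9 and 11.4 CPM untreated and 8.48, 9.88 and 7.82 CPM treated in WT cells, and 20.97, 18.6 and 22.7 CPM untreated and 12.2, 13.8 and 10.7 CPM treated in S80A cells. The treated S80A samples overlapped the untreated WT samples. RXRA, the partner of many nuclear receptors, was 25.6% lower in WT and 11.4% lower in S80A cells. Its interaction of 0.24 log2 units (SE 0.11) was the other one with an unadjusted p under 0.05.

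IDH1, the cytosolic NADP-dependent isocitrate dehydrogenase, was among the most even, at 86.8, 82.7 and 82.4 CPM against 66.3, 61.8 and 61.7 CPM in WT and 73.2, 80.5 and 74.0 CPM against 56.6, 59.5 and 55.6 CPM in S80A cells. The falls were 24.7% and 24.6%. The cholesterol synthesis enzymes SQLE and FDFT1 met the rule, among 19 measured (10.5%, against 1.49% of all genes past the floor). Their log2 fold changes were -0.19 and -0.13 in WT and -0.27 and -0.14 in S80A cells. The 3 remaining genes of the 20 with the largest mean fall were RAB3A, a GTPase of synaptic vesicle release, METTL7A, a methyltransferase-like protein, and KAZALD1, a secreted protein. RAB3A was 31.3% lower in WT and 40.8% lower in S80A cells, METTL7A 31.2% and 37.5%, and KAZALD1 34.8% and 30.5%.

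The remaining lists are given beside the share of all genes past the floor that met the rule, which was 1.49%. KLF15 met it among 16 KLF and SP factors (6.25%) and CDKN2C among 36 cell cycle genes (2.78%), both above that share but with 1 gene each. ZNF362 and ZNF503 met it among 336 zinc finger genes named ZNF (0.595%). Neither the 77 cytosolic ribosomal protein genes nor the 16 NF-κB feedback genes held a member, and at a share of 1.49% lists of these sizes can hold none, so nothing is read from this. The medians of the NF-κB feedback genes were 0.88 in WT and 0.90 log2 units in S80A cells. In all, 39 of the 160 genes were in 1 of the 15 lists.

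**Figure D3:**
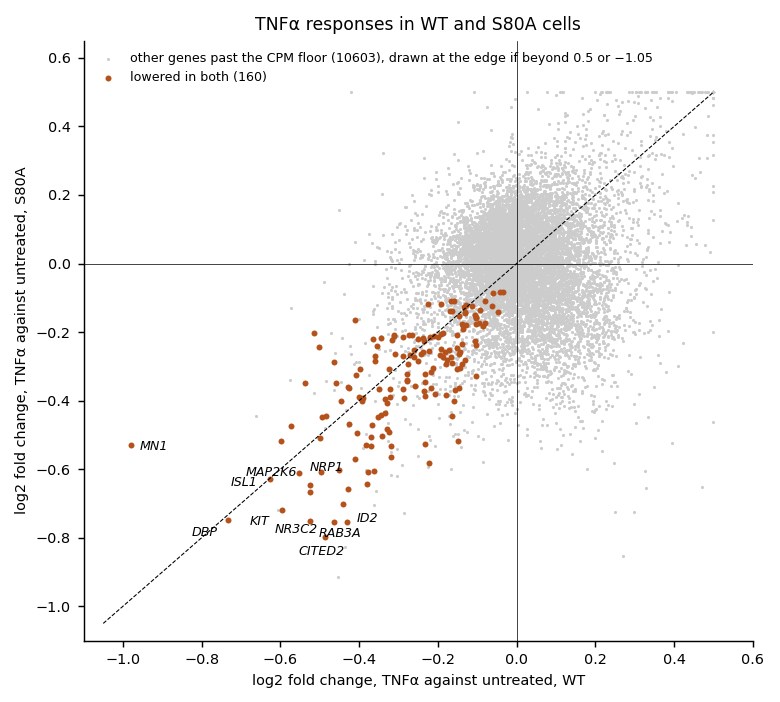
Log2 fold change of TNFα against untreated cells in WT (x axis) and S80A cells (y axis) for the 160 genes (orange) and the other 10603 genes past the CPM floor (grey), with equal change on the dashed line. The 160 genes fill the lower left, from -0.98 to -0.03 on the x axis and from -0.80 to -0.08 on the y axis, as the rule requires.

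Whether the falls differed between S80A and WT cells was tested as an interaction in the same edgeR model. The effect of the edit and a difference between clones cannot be told apart in it. Among the 160 genes 0 passed, as did 0% of the 14383 genes tested. At an unadjusted p under 0.05 there were 2 of the 160 (1.25%), against 3.62% of all genes tested, and DESeq2 called 0. The rule takes only genes that were lower in both genotypes, and so limits how far the 2 falls can differ. By sign, 115 genes had the larger fall in S80A and 45 in WT cells, with a median interaction of -0.06 log2 units, and without the second untreated S80A sample the median was -0.03. Over the genes past the floor, 5322 of 10763 had a negative interaction. The rule chose the genes by both falls and can shape this count of signs, so nothing is read from it. The median SE of an interaction among the 160 genes was 0.14 log2 units, so a difference near the median was not detectable for a single gene.

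The genotypes themselves differed in many of these genes. In untreated cells 37 of the 160 (23.1%) passed the threshold in edgeR, 23 higher and 14 lower in S80A cells, while among all genes tested 2.05% were called higher and 4.21% lower. After TNFα 30 (18.8%) passed, 15 in each direction, where 2.92% of all genes were called higher and 4.44% lower. Of the 194 genes raised without overlap in both genotypes, chosen by the same order in the other direction, 13 (6.7%) passed untreated and 20 (10.3%) after TNFα. The median SE of the genotype difference in untreated cells was 0.10 log2 units for the 160 genes, 0.10 for the 194 and 0.11 for the genes past the floor. A rule of no overlap favours genes with little spread within groups, and its part in these shares was not tested. The 2 genotype contrasts share no samples. Of the 160 genes 23 passed in both states, 13 higher and 10 lower and all with the same sign in both, 44 passed in at least 1 state and 116 in neither. The counts fell when any sample of the groups compared was left out. In untreated cells 20, 14 and 19 passed without the first, the second and the third untreated WT sample, and 22 and 21 without the first and the third untreated S80A sample. After TNFα 17 passed without the first treated WT sample and 19 without the first treated S80A sample. A fit to the 6 untreated samples alone called 18, and a fit with no filter on low counts 23.

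MAF, a bZIP transcription factor, was the gene most above WT, with 35.3, 34.0 and 36.4 CPM in untreated WT and 60.0, 74.2 and 71.3 CPM in untreated S80A samples. After TNFα it stood at 30.7, 31.0 and 22.1 CPM in WT and 44.2, 48.1 and 49.3 CPM in S80A cells, so that every S80A sample lay above every WT sample. The genotype difference was 0.94 log2 units untreated (SE 0.13, adjusted p = 0.000472 in edgeR) and 0.73 after TNFα (SE 0.13, adjusted p = 0.00373 in edgeR). MAF also passed in both states with each sample left out and under the 7 other settings.

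Other genes higher in S80A cells included regulators of signalling and differentiation. SPRY2 differed by 0.79 log2 units untreated (SE 0.11, adjusted p = 0.000525 in edgeR) and 0.58 after TNFα. NR3C2 differed by 0.75 (SE 0.12, adjusted p = 0.00196 in edgeR) and 0.46 log2 units (SE 0.13, adjusted p = 0.0423 in edgeR). METTL7A differed by 0.68 untreated and 0.54 after TNFα, the latter with an SE of 0.15 and an adjusted p of 0.0404 in edgeR. SEMA3D was 0.81 log2 units higher untreated (SE 0.18, adjusted p = 0.0145 in edgeR), while its difference of 0.66 after TNFα missed the threshold (SE 0.19, adjusted p = 0.0504 in edgeR). FOXA1, a pioneer factor, TSC22D3, also known as GILZ, a glucocorticoid-induced regulator, and CDKN2C, an inhibitor of CDK4 and CDK6, were 0.70, 0.61 and 0.60 log2 units higher after TNFα. FRAT1 was 0.51 higher untreated and 0.61 after TNFα. Under all 19 settings SPRY2, TSC22D3 and CDKN2C passed in both states, NR3C2 only untreated and FOXA1 only after TNFα. METTL7A, SEMA3D and FRAT1 did not pass under all settings in either state.

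MAP2K6 was the gene furthest below WT after TNFα. It measured 19.5, 16.95 and 16.5 CPM in untreated WT and 8.47, 9.91 and 10.2 CPM in untreated S80A samples, then 11.6, 11.6 and 13.1 CPM and 5.15, 6.40 and 6.65 CPM after TNFα. Even the treated WT samples lay above all untreated S80A samples. The difference was -0.90 log2 units untreated (SE 0.13, adjusted p = 0.000785 in edgeR) and -1.03 after TNFα (SE 0.14, adjusted p = 0.000446 in edgeR), while TNFα lowered it by 31.4% in WT and 36.3% in S80A cells.

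KCNJ12, an inward rectifier potassium channel, was lower in S80A cells, with a difference of -0.85 log2 units untreated (SE 0.15, adjusted p = 0.00352 in edgeR) and -0.81 after TNFα. Its WT levels were 13.2, 11.7 and 10.6 CPM, then 9.54, 7.90 and 7.51 CPM, and its S80A levels 8.37, 5.62 and 5.89 CPM, then 5.20, 4.54 and 4.70 CPM. STK24, a STE20 family kinase, and LRP2, the endocytic receptor megalin, differed by -0.61 and -0.57 log2 units untreated and by -0.66 and -0.67 after TNFα. KCNJ12 and STK24 passed in both states under all 19 settings, and LRP2 did so only after TNFα. For STK24 the genotypes differed by far more than the response to TNFα, which was 7.31% in WT and 9.38% in S80A cells. BOLA3-AS1 was lower too, with -0.95 log2 units untreated (SE 0.12, adjusted p = 0.000229 in edgeR) and -0.84 after TNFα. Its current symbol is BOLA3-DT. Strand use in counting is not given in the sources used here, and whether reads of BOLA3 entered the count of BOLA3-AS1 was not tested.

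The other genes with the largest falls showed smaller genotype differences. DBP, KIT, ISL1, ID3 and IDH1, the 5 that passed for TNFα in both genotypes, did not pass between genotypes in either state. Their differences in untreated cells ran from -0.27 log2 units in ISL1 to 0.30 in DBP. MN1 differed by -0.04 log2 units untreated (SE 0.15) and 0.41 after TNFα (SE 0.16, adjusted p = 0.146 in edgeR).

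Gene structure was described after the values were seen, with no test. In the GENCODE annotation (release 44, GRCh38) 159 of the 160 symbols matched, 157 of them as protein coding genes. The canonical transcripts of these genes had a median of 5 exons, against 9 for the genes past the floor and 10 for the 194 raised genes. Of the 159, 39 (24.5%) had 1 or 2 exons, against 6.23% of genes past the floor and 8.25% of the raised genes. Without HOX genes the shares were 21.1% of 152 and 5.99% of genes past the floor. The 14 genes with 1 exon were CEBPA, FRAT1, FRAT2, FZD2, FZD7, GAS1, H1F0, MGAT2, POU3F2, SMIM10, SOX12, SOX2, TSPYL1 and TTC30B. The gene span was under 10 kb for 32.1% of the 159, against 17.4% of genes past the floor and 19.6% of the raised genes, and ran from 1.23 kb in ID1 to 366 kb in NR3C2 among those named here. The transcripts differed less, with a median length of 3.23 kb against 3.5 kb. The 3′ untranslated region had a median of 1.58 kb, against 1.45 kb for the genes past the floor and 1.49 kb for the raised genes. ATTTA pentamers, a core of AU-rich decay elements, had a median of 2.0 per kb of it. The medians were 1.86 for the genes past the floor and 2.25 for the raised genes.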

How the data were processed

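RNA of 12 HEK293T samples was sequenced as single-end 75 bp reads. The authors aligned them to GRCh38 with HISAT and deposited raw HTSeq-count counts per gene symbol, versions and strand setting not given in the sources used here. Of 33121 rows, 28 whose symbols and some counts had become dates were left out. Columns were mapped to samples by their titles. The description of the treated WT sample titled as number 3 carries the number 2, and the title was used. The authors' deposited result tables hold fold changes, p-values and normalised signal, and were not used.

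Members follow the CPM rule. Counts were fitted in edgeR 4.0.16 (R 4.3.3; filterByExpr, minimum count 10; TMM; quasi-likelihood, 1 mean per group; 14383 genes), with Benjamini-Hochberg adjustment. These steps were tested on simulated data. Standard errors are the log2 fold change over the square root of F. P-values set a difference against the spread between samples of the same group, and not against differences between edited clones.

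Members, lists and tests were chosen with earlier results of these data known. Genes named are the 20 largest mean falls, those past the threshold for TNFα in both genotypes, up to 4 examples per list in order of fall, the 5 largest genotype rises and falls called per state, and genes at the rule's edges; families and structure were added after values were seen. Alternatives were other scalings, filters, DESeq2 1.42.0, a replicate block, fits to the samples compared and leaving out each sample. Python 3.11.15 was used otherwise.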

Additional observations from a re-analysis of the deposited data

Results flagged for a closer look

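In 18 genes past the CPM floor every treated sample moved one way in WT cells and the other way in S80A cells. Of these, 15 were lower without overlap after TNFα in WT and higher in S80A cells: ALG3, CCDC74A, CKB, NAPA, NCAPH2, PLD1, PPFIA3, RHOT2, RPL13AP5, RPS6KB2, SELO, TPRN, TSC22D4, U2AF1L4 and ZNF414. If all orders of the samples were equally likely, 26.9 genes would show each of the opposite patterns. The genes were chosen by this pattern, so their interaction is a description and supports nothing: 9 of the 15 had an unadjusted p under 0.05, and 0 passed after adjustment over all genes in edgeR, with a lowest adjusted p of 0.911. ALG3, a mannosyltransferase of the endoplasmic reticulum, measured 43.95, 45.0 and 46.2 CPM before and 40.5, 41.5 and 41.9 CPM after TNFα in WT cells, and 43.8, 36.5 and 39.8 CPM before and 46.3, 44.9 and 48.2 CPM after it in S80A cells. It was named after its values were seen.

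Another 3 genes, FAM184A, ZNF300 and ZNF670, were higher in WT and lower in S80A cells. ZNF300, a zinc finger protein, measured 13.4, 12.8 and 12.8 CPM, then 16.7, 14.9 and 15.5 CPM in WT cells, and 16.01, 15.2 and 15.0 CPM, then 14.5, 14.02 and 14.7 CPM in S80A cells. In the same way, 2 of the 3 had an unadjusted interaction p under 0.05 in edgeR and 0 passed after adjustment, with a lowest adjusted p of 0.911.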

How the results depend on the processing

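The rule gave 160 genes, and 140, 142, 205 and 137 with TMM scaling, DESeq2 size factors, a floor of 1 CPM and a floor of 10 CPM. With a sample left out it gave 179 to 280 genes, the highest without the second untreated S80A sample. Counts past the threshold with a sample left out ran from 1 to 17 for TNFα in WT, 8 to 29 for TNFα in S80A, 14 to 38 between untreated genotypes and 17 to 39 between treated genotypes, and stayed at 0 for the interaction. For TNFα in WT, 1, 3 and 2 genes passed without the first, the second and the third untreated WT sample, 1 without the first or the second treated WT sample, 17 without the second untreated and 5 without the second treated S80A sample. For TNFα in S80A, 13 passed without the third untreated S80A sample, and 8, 11 and 12 without the first, the second and the third treated one. DESeq2 called 26 genes for TNFα in WT and 42 in S80A. A fit to only the 6 samples compared called 4 for TNFα in S80A and 18 between untreated genotypes, and no filter on low counts called 23 between untreated genotypes. The cause of these changes was not tested. Of the 37 genes past the threshold between untreated genotypes 13 passed under all 19 settings, and of the 30 after TNFα 15 did. None of these genes changed sign.

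Same-numbered samples deviated together in some groups and not in others (correlations of -0.29 to 0.71), so the number was not taken to pair samples. Some samples of different number deviated together too. Untreated sample 2 and treated sample 3 correlated at 0.722 in S80A and 0.372 in WT cells. For untreated sample 3 and treated sample 2 the values were 0.507 and 0.265. Others of different number went down to -0.717. Whether the samples were paired in another order was not tested. The third treated WT sample is numbered by its title, and its description gives another number, which bears on its part in these correlations and in the block. With the replicate block, that is with each treated sample below the untreated sample of its number, 398 genes met the rule, and the block in the edgeR fit called 14, 30, 42 and 39 genes for TNFα in WT, TNFα in S80A and the untreated and treated genotype contrasts, and 0 for the interaction.

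The motif shares are void for the reason given above. As values alone, the share of matched genes minus that of all promoters, and minus that of genes past the CPM floor, was -4.86 and 2.52 percentage points for the TATA box, -6.17 and -2.13 for the AP-1 site, -3.56 and -14.16 for the ETS site, 29.2 and 0.70 for the GC box and 11.1 and 9 for the CCAAT box. For the other 4 motifs both differences were under 5 percentage points in size. Depth limits genes near the CPM floor most, where a sample held as few as 51 counts.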
